A study of Mus musculus with 12 samples.

Results

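RNA labelled as that of sorted cortical astrocytes was compared between day 60 and day 7 after focal ischaemic stroke in mice, over all genes of the deposited count table. The comparison holds 4 of the 12 libraries of the study, 2 from day 7 and 2 from day 60, and asks what changed between the week after the injury and the chronic stage. All mice were wild-type C57BL/6J. In the stroke groups the distal middle cerebral artery had been tied off for good with sutures and both common carotid arteries closed for 7 min. Sham mice were operated on at the skull surface only, where they received lesions. Astrocytes of the cerebral cortex were isolated by FACS (fluorescence-activated cell sorting) and total RNA was sequenced. The remaining 8 libraries (2 each of sham and of days 1, 3 and 21) entered the statistical model, and sham and day 21 levels are given beside some genes for reference. The age and number of the mice, the marker of the sort and whether animals were pooled for a library are not given in the sources used here. The p-values therefore measure the spread between these libraries, which may be technical.

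Astrocytes react to stroke by enlarging, by changing their surface and secreted proteins and, near the lesion, by dividing. A scar forms over the following weeks, in which astrocytes border a core of fibroblasts, macrophages and newly deposited matrix rich in collagens. Microglia and macrophages clear debris in the same period, and complement, chemokines and acute phase proteins are among the secreted products that can persist.

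Levels are in CPM, counts scaled to the size of the library with TMM factors, given for replicate 1 and then replicate 2. Fold changes are log2 values, day 60 minus day 7, ± standard error, with n = 2 libraries in each group. A gene is called higher, lower, risen or fallen only at a Benjamini-Hochberg adjusted p under 0.05 over all genes tested. The test is the quasi-likelihood F test of edgeR in a fit of all 12 libraries, with no block for the replicate number. Each adjusted p comes from that test unless another is named.

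Replicate 1 libraries held 13006008 to 16575045 counts and replicate 2 libraries 97056596 to 156128922. Across genes the day 7 replicates correlated at 0.939 and the day 60 replicates at 0.892. Between the days, the replicate 2 libraries correlated at 0.912 and the replicate 1 libraries at 0.874. Day 7 replicate 2 and day 60 replicate 1 correlated at 0.843, and day 7 replicate 1 and day 60 replicate 2 at 0.866. The cell type label was checked against markers. The 30 astrocyte identity genes held 0.288% and 0.2% of all counts at day 7, 0.692% and 0.568% at day 60 and 1.68% and 1.49% in sham. The 13 fibroblast markers held 8.43% and 20.1% at day 7 and 2.13% and 2.85% at day 60, against 0.0101% and 0.0117% in sham. Of that share the 3 collagens among them (Col1a1, Col1a2 and Col3a1) held 7.66% and 19.4% at day 7 and 0.701% and 1.35% at day 60. The other 10 fibroblast markers held 0.775% and 0.675% at day 7, which was less than the 1.43% and 1.5% they held at day 60. Of these 10, Dcn alone held 0.792% and 0.84% at day 60. Col3a1 was the gene with the most counts in both day 7 libraries, and in both groups the fibroblast markers held more counts than the astrocyte genes. The libraries of both days therefore go against their astrocyte label and are called by their day. None of the 30 astrocyte genes was at 0 counts in both libraries of day 7 or in both libraries of day 60. In bulk RNA, fewer cells of a type and less RNA per cell cannot be told apart.

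Of 15635 genes tested, 617 differed between day 60 and day 7 (3.95%), 243 of them higher at day 60 (1.55%) and 374 lower (2.39%). The median log2 fold change of all genes tested was 0.01, and 3313 genes had an unadjusted p under 0.05. Lower calls outnumbered higher calls under this scaling, but DESeq2 called 1107 higher (7.02%) and 965 lower (6.12%), 13.1% in all, and a fit of the 4 libraries alone called 306 and 322. With the replicate number as a block 1942 genes were called (12.4%), 885 higher (5.66%) and 1057 lower (6.76%). The count rested on each library, since 55 and 113 genes were called when day 7 replicate 1 or 2 was left out, and 44 and 332 when day 60 replicate 1 or 2 was. Of 93 called genes that are named by the rule in the methods, 12 kept the call with any of the 4 libraries left out: Lhx8, Car3, Cxcl5, Lcn2, Saa3, Cyp2f2, Prok2 and Gpx3, which rose, Snap25, which rose and is a neuronal gene, and Fcrls, Plagl1 and Aspn, which fell.

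**Figure D1:**
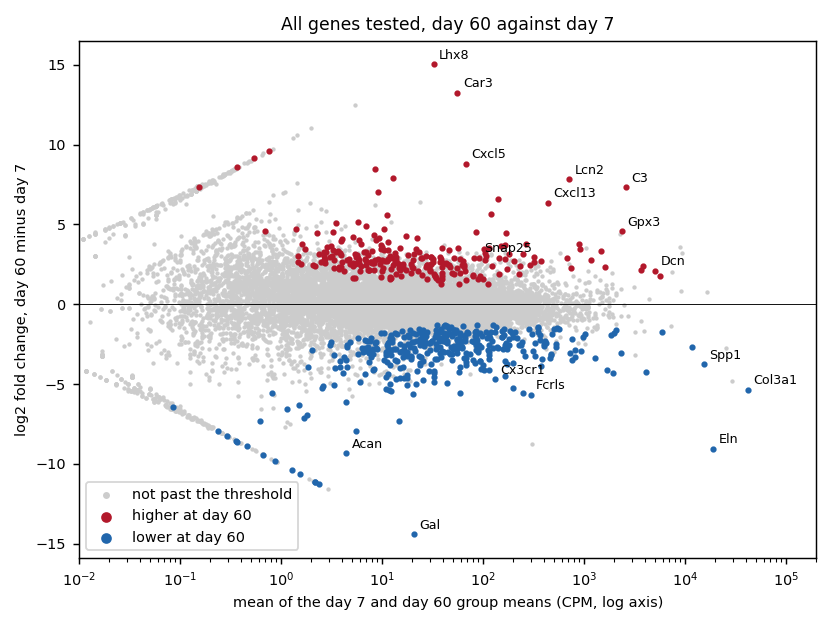
Each point is a gene, with its mean level over day 7 and day 60 on the horizontal axis (CPM, log axis, from 0.01) and its fitted log2 fold change on the vertical axis. Red marks the 243 genes higher at day 60 and blue the 374 lower, and a fitted fold of a gene with 0 counts in a group is no bound.

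The largest rises included secreted inflammatory proteins and genes that were nearly silent at day 7. Lcn2, a lipocalin that binds iron-carrying siderophores and marks reactive astrocytes, stood at 4.97 and 7.36 CPM at day 7 and at 1354 and 1498 CPM at day 60 (log2 change 7.85 ± 0.57, adjusted p = 0.000709). The day 7 level of Lcn2 overlapped that of sham (4.3 and 5.51 CPM). C3, the central protein of the complement cascade, went from 26 and 38.4 to 3005 and 7265 CPM (log2 change 7.32 ± 1.17, adjusted p = 0.0118). Both day 60 libraries lay far above both day 7 libraries for C3, although they differed from each other by more than the day 7 pair did.

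Cxcl5, a chemokine that attracts neutrophils, stood at 0.202 and 0.353 CPM at day 7 and at 147 and 121 CPM at day 60 (log2 change 8.79 ± 0.66, adjusted p = 0.000709). Cxcl13, which attracts B cells, went from 11.3 and 10.2 to 1023 and 727 CPM (log2 change 6.35 ± 0.74, adjusted p = 0.00418). The serum amyloid gene Saa3, an acute phase protein, went from 2.35 and 3.22 to 309 and 242 CPM (log2 change 6.62 ± 0.73, adjusted p = 0.00413). In sham each of these 3 genes was low, with at most 1.15 CPM. Saa4, of the same family, had 0.269 and 0.567 CPM at day 7 and 6.64 and 37.3 at day 60 (log2 change 5.60 ± 1.19, adjusted p = 0.0445), with a wide gap between its day 60 libraries.

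Lhx8, a LIM-homeodomain transcription factor of ventral forebrain neurons, had 0 counts in both day 7 libraries and 52.5 and 77 CPM at day 60. It was at least 564-fold higher at day 60, against a floor of 3 counts in each day 7 library (log2 change 15.04 ± 0.94, adjusted p = 0.00196, a fitted value that is no bound). Car3, a carbonic anhydrase abundant in fat and muscle, had 1 count at day 7 and 111 and 112 CPM at day 60, a ratio of 13667 with a 95% counting interval of 2453 to 539850.0 (adjusted p = 0.00473). Adamdec1, a secreted metalloprotease-like protein, had 3 counts at day 7, all in replicate 1 (0.202 and 0 CPM), and 10.7 and 23.1 CPM at day 60. Its ratio, of counts pooled over libraries of unlike depth, was 887 with an interval of 303 to 4303. The fitted log2 change was 8.47 ± 1.71 (adjusted p = 0.0375). These intervals and floors cover counting error only.

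Igj, the joining chain of secreted antibodies, went from 0.134 and 0.093 to 30.7 and 20.2 CPM (log2 change 7.89 ± 1.15, adjusted p = 0.00811). Cyp2f2, a cytochrome P450, went from 3.9 and 5.2 to 196 and 273 CPM (log2 change 5.68 ± 0.65, adjusted p = 0.00413). Prok2, the secreted peptide prokineticin 2, went from 0.336 and 0.316 to 12.1 and 10.6 CPM (log2 change 5.12 ± 0.59, adjusted p = 0.00413), Sct, which encodes secretin, from 0 and 0.205 to 17.8 and 18.8 CPM (adjusted p = 0.00895), and Slpi, a protease inhibitor, from 0.403 and 0.465 to 18.2 and 8.76 CPM (adjusted p = 0.0438). All 14 of the largest rises had both day 60 libraries above both day 7 libraries, as the rule for naming them requires. With 1 library left out, Adamdec1, Saa4 and Slpi lost the call in each of the 4 fits (adjusted p 0.0518 to 0.113, 0.0794 to 0.226 and 0.0667 to 0.232). Igj and C3 kept it only without day 60 replicate 2 (0.0281 and 0.036), and otherwise had 0.0743, 0.0825 and 0.0567 (Igj) and 0.114, 0.087 and 0.0509 (C3) on leaving out day 7 replicate 1, day 7 replicate 2 and day 60 replicate 1. Sct lost it without day 60 replicate 1 (0.0539) and Cxcl13 without day 7 replicate 1 (0.0518).

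The 14 largest falls included matrix genes, macrophage and microglial genes and a neuropeptide. Eln, which encodes elastin, went from 12243 and 63859.8 CPM at day 7 to 43.6 and 99.7 CPM at day 60 (log2 change -9.05 ± 1.89, adjusted p = 0.0309). Its day 7 libraries differed by several fold, and the lower of them still lay far above both day 60 libraries. Col3a1, the fibrillar collagen of soft tissue, went from 35731 and 129462 to 1039 and 2994 CPM (log2 change -5.36 ± 1.19, adjusted p = 0.0386), and its day 60 level lay above that of sham (15.4 and 14.8 CPM). Gal, the precursor of the neuropeptide galanin, had 36.3 and 47.2 CPM at day 7 and 0 counts in both day 60 libraries, at least 432-fold lower against a floor of 3 counts in each library (adjusted p = 0.00586).

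Col7a1, the collagen of anchoring fibrils, went from 289 and 695 to 14.5 and 6.13 CPM (log2 change -5.58 ± 0.94, adjusted p = 0.0146), and Col11a1, a minor fibrillar collagen, from 265 and 517 to 6.87 and 13.4 CPM (log2 change -5.26 ± 0.94, adjusted p = 0.0183). Lrrc15, a membrane protein of activated fibroblasts, went from 39.3 and 19.5 to 0 and 0.283 CPM (log2 change -7.30 ± 1.15, adjusted p = 0.0111). Fcrls, a receptor that marks microglia, went from 724 and 439 to 11.3 and 11.4 CPM (log2 change -5.68 ± 0.44, adjusted p = 0.000709), which put both day 60 libraries below sham (43.6 and 43.2 CPM). Cst7, a cystatin of activated microglia and other leukocytes, went from 49.5 and 30 to 0.344 and 1.17 CPM (log2 change -5.61 ± 0.74, adjusted p = 0.00574).

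F13a1, the coagulation factor XIII subunit carried by macrophages, went from 151 and 78.5 to 0.115 and 4.53 CPM, with its day 60 libraries far apart (log2 change -5.55 ± 1.12, adjusted p = 0.0272). Havcr2, the immune receptor TIM-3, went from 55.3 and 29.1 to 0.916 and 1.68 CPM, and Cd180, a Toll-like receptor relative, from 31.7 and 13.9 to 0.401 and 0.667 CPM (adjusted p = 0.00531 and 0.00737). Tifab, a relative of the signalling adaptor TIFA, went from 33 and 10.3 to 0 and 0.935 CPM, and Aldh1a3, which makes retinoic acid, from 34.5 and 34.2 to 0.0573 and 1.8 CPM (adjusted p = 0.0438 and 0.0245). Plagl1, an imprinted zinc finger factor, went from 30 and 18.2 to 0.802 and 0.348 CPM (log2 change -5.47 ± 0.70, adjusted p = 0.00539). Both day 60 libraries of Havcr2, Tifab, Aldh1a3 and Plagl1 lay below both sham libraries, whereas those of Cd180, Col7a1 and Col11a1 lay above.

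Among these falls, Eln, Col3a1 and Col11a1 lost the call in each fit that left out 1 library (adjusted p 0.0706 to 0.217, 0.0824 to 0.242 and 0.0540 to 0.155). Gal, Cst7 and Havcr2 lost it only without day 60 replicate 1 (0.0504, 0.0514 and 0.0549). Lrrc15 and Cd180 lost it without day 7 replicate 1 (0.0743 and 0.0526) and without day 60 replicate 1 (0.0629 and 0.0809), and F13a1 without either day 7 library (0.119 and 0.0694). Col7a1 kept it only without day 7 replicate 1 (0.0465; otherwise 0.0582 on leaving out day 7 replicate 2, and 0.0933 and 0.0762 on leaving out day 60 replicate 1 or 2). Tifab and Aldh1a3 kept it only without day 60 replicate 2 (0.0307 and 0.018), and otherwise had 0.192, 0.0825 and 0.122 (Tifab) and 0.0901, 0.0815 and 0.0514 (Aldh1a3) in the order used above.

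**Figure D2:**
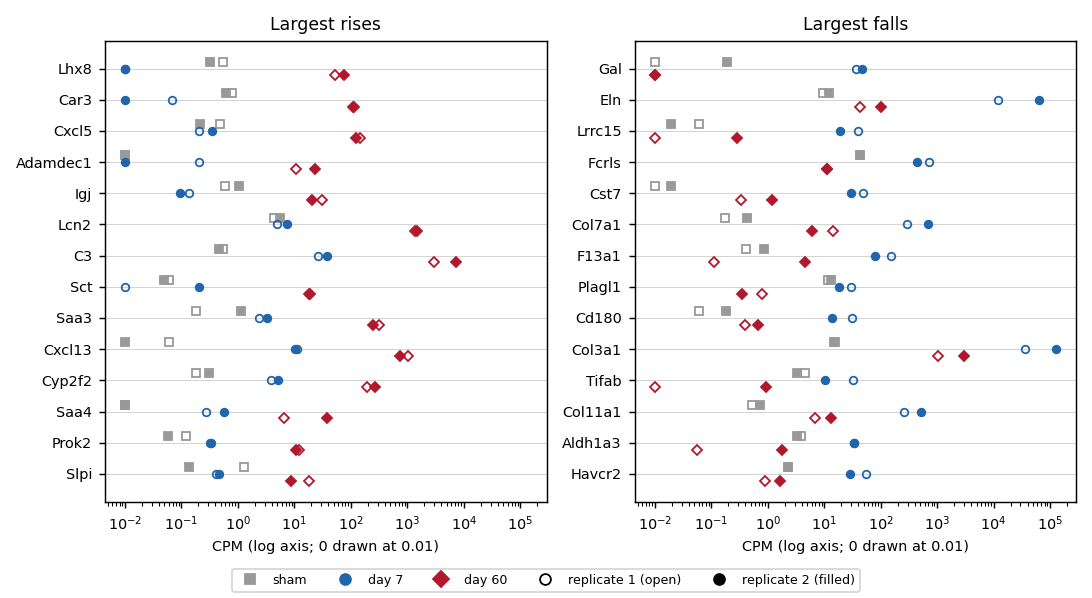
The 14 largest rises and 14 largest falls, 1 gene a row, with the CPM of each library on a log axis (0 is drawn at 0.01) for sham (grey squares), day 7 (blue circles) and day 60 (red diamonds). In every row the day 7 pair and the day 60 pair lie apart, and Lcn2 at day 7 lies beside sham.

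On the mm10 assembly, with GENCODE gene bounds, Lcn2 lies at chr2:32384633-32388252 and C3 at chr17:57203970-57228136, and Lhx8 at chr3:154306294-154330659. Col3a1 lies at chr1:45311538-45349706, Eln at chr5:134702593-134747323 and Gal at chr19:3409915-3414544. All 6 are protein-coding. Among the genes chosen by the rule in the methods, Igf2 shares over 20% of its exon bases with a gene on the same strand, and Tapbp, Jund, Hes5, Tagln and Rarres2 with a gene on the opposite strand, so their counts are uncertain.

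Genes of the cell division machinery were lower at day 60. Of 40 tested, 18 fell and 0 rose, and the other 22 did not pass. All 40 estimates were negative, with a median of -2.38 against 0.01 for all genes. Cdk1, the kinase that drives entry into mitosis, went from 24.4 and 27.3 CPM at day 7 to 1.6 and 2.68 CPM at day 60 (log2 change -3.57 ± 0.74, adjusted p = 0.0295), next to 1.49 and 3.26 CPM in sham. Its mitotic cyclins fell as well: Ccnb1 went from 7.19 and 4.71 to 0.974 and 0.384 CPM (log2 change -3.20 ± 0.68, adjusted p = 0.033) and Ccnb2 from 17.5 and 22.4 to 1.78 and 2.57 CPM (log2 change -3.19 ± 0.52, adjusted p = 0.0125).

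Mki67, the proliferation antigen, went from 25.7 and 15.8 to 4.87 and 3.34 CPM (log2 change -2.34 ± 0.57, adjusted p = 0.0499), just past the threshold. Top2a, the topoisomerase of dividing cells, went from 32.6 and 32.3 to 2.75 and 6.07 CPM but did not pass (log2 change -2.86 ± 0.75, adjusted p = 0.0625; 0.00393 with the replicate block). Aurka and Aurkb, kinases of the spindle and of chromosome segregation, went from 12.6 and 11.1 to 2.35 and 1.28 CPM and from 14.2 and 16.7 to 3.38 and 1.11 CPM (adjusted p = 0.0272 and 0.0341). Birc5, or survivin, went from 13.2 and 15.5 to 0.859 and 1.89 CPM (log2 change -3.34 ± 0.50, adjusted p = 0.00896). The replication helicase subunits Mcm3 and Mcm5 fell by less, with log2 fold changes of -1.81 ± 0.40 and -1.89 ± 0.40 (adjusted p = 0.0367 and 0.0316).

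E2f8, a repressor that is itself cell cycle regulated, had 4.43 and 2.73 CPM at day 7 and 0 and 0.0363 CPM at day 60 (adjusted p = 0.0338), and Hmmr, a spindle protein, went from 9.4 and 7.74 to 0.344 and 0.029 CPM (log2 change -6.14 ± 1.0, adjusted p = 0.0125). Cdca3, a mitotic entry factor, went from 14.3 and 13.3 to 0.401 and 1.67 CPM (log2 change -3.65 ± 0.85, adjusted p = 0.046). All of these levels are low, and the 40 genes together held 0.0773% and 0.0602% of counts at day 7 and 0.0182% and 0.0256% at day 60. The number of members that fell was 0 and 3 when day 7 replicate 1 or 2 was left out and 1 and 8 when day 60 replicate 1 or 2 was. With the replicate block it was 32. Microglial markers fell with this list, as described further on, and the part of other cell types in it was not tested.

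The promoters of the cell division genes are shown because many share a motif. A CCAAT box (CCAAT, either strand) occurred within 250 bases upstream of the start site in 28 of the 34 cell division genes with a promoter in the RefSeq table (82.4%), against 39.8% of 11693 genes tested. The cell cycle homology region (TTTGAA, either strand) occurred in 10 of 34 (29.4%), against 13.1%. These promoters of genes that fell are from RefSeq, build GRCm38.p6, and run 5′ to 3′ on the gene's strand (minus in all 4), with both motifs in capitals on either strand.
Cdk1, chr10:69352913-69353162: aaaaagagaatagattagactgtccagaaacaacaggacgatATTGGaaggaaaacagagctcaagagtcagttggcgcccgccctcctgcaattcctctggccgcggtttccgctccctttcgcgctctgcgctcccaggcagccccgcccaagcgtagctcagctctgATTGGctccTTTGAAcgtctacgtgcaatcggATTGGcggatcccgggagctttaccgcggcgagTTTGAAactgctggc
Ccnb1, chr13:100786487-100786736: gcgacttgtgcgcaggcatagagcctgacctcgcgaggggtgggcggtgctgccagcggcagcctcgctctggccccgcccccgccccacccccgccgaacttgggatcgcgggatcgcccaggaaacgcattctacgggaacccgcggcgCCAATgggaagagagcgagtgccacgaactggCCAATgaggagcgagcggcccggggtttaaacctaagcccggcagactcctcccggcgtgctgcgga
Ccnb2, chr9:70421555-70421804: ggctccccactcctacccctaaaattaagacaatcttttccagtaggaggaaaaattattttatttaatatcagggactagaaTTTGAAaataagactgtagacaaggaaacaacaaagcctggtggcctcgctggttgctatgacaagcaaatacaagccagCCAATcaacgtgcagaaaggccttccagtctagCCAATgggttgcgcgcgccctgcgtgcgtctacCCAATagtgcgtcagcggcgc
Aurka, chr2:172370571-172370820: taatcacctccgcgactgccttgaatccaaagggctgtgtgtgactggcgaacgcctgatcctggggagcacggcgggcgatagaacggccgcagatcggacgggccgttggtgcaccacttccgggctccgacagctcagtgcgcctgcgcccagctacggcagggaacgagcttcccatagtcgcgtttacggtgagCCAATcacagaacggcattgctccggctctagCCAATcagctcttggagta
Cdk1 and Ccnb2 carry 3 CCAAT boxes each, and Ccnb1 and Aurka 2 each. The TTTGAA motif occurs in Cdk1 and Ccnb2 of these 4. Not every promoter of the list held a match, and an absence covers only these 250 bases before the annotated start. A motif match is a description of these letters and of a list that was chosen by function, so it carries no test. A kappaB-like motif (GGGA and CC with 4 bases between them, either strand) was also searched for and occurred in 3 of 13 acute phase promoters (23.1%), against 26.2% of genes tested.

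Of 22 collagen genes tested, 10 fell, 0 rose and 12 did not pass, with a median of -2.90. The 22 genes held 9.6% and 22.4% of all counts at day 7, 1.13% and 2% at day 60 and 0.0132% and 0.0232% in sham, so that the share at day 60 was well below day 7 and well above sham. Besides Col3a1 and Col11a1, the basement membrane genes Col4a1 and Col4a2 fell. Col4a1 went from 4823 and 10926 CPM at day 7 to 227 and 615 CPM at day 60 (log2 change -4.23 ± 0.78, adjusted p = 0.0192), and Col4a2 from 2388 and 4078 to 142 and 224 CPM (log2 change -4.14 ± 0.67, adjusted p = 0.0124).

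Col5a2, which joins fibrils of type I collagen, went from 1328 and 6059 to 117 and 259 CPM (log2 change -4.29 ± 0.91, adjusted p = 0.033). Col6a3, of the microfibrillar collagen VI, went from 649.7 and 770.0 to 49.7 and 46.3 CPM (log2 change -3.89 ± 0.45, adjusted p = 0.00418), and Col8a1 from 1606 and 1168 to 165 and 85.8 CPM (log2 change -3.47 ± 0.43, adjusted p = 0.00531). Col4a5, Col5a3 and Col15a1 also fell, with log2 fold changes of -3.12 ± 0.63, -3.68 ± 0.82 and -3.07 ± 0.54 (adjusted p = 0.0272, 0.0388 and 0.0158). Col1a1, the main chain of type I collagen, had 26348 and 85889 CPM at day 7 and 1061 and 2871 CPM at day 60 and did not pass (log2 change -4.83 ± 1.45, adjusted p = 0.0914; 0.0123 with the replicate block). Its replicates lay about as far apart as those of Col3a1. Col23a1, a membrane collagen, was the only collagen with a positive estimate and did not pass (log2 change 1.18 ± 0.38, adjusted p = 0.108; 0.0107 with the replicate block). The number of collagens that fell was 3 and 2 when day 7 replicate 1 or 2 was left out and 1 and 4 when day 60 replicate 1 or 2 was, and 17 with the replicate block.

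Of 33 proteoglycans and glycoproteins, 16 fell and 2 rose, with a median of -1.42. Among those that fell were 3 chondroitin sulfate proteoglycans. Vcan (versican) went from 86.6 and 84.8 to 3.44 and 2.17 CPM (log2 change -4.95 ± 0.85, adjusted p = 0.0152), and Cspg4 (NG2) from 105 and 69.4 to 13.7 and 11.4 CPM (log2 change -2.80 ± 0.40, adjusted p = 0.00764). Acan (aggrecan) had 8.06 and 9.6 CPM at day 7 and 2 counts in all at day 60, a ratio of 731 with a counting interval of 202 to 6045 (adjusted p = 0.0152). Fn1, which encodes fibronectin, went from 3550.0 and 4791 to 341 and 673 CPM (log2 change -3.04 ± 0.49, adjusted p = 0.0123), and Tnc, the injury-induced glycoprotein tenascin C, from 61.5 and 78.7 to 5.56 and 12.3 CPM (log2 change -2.96 ± 0.57, adjusted p = 0.0224).

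Of the basement membrane proteins, Nid1 (nidogen 1) went from 2202 and 2497 to 135 and 326 CPM (log2 change -3.35 ± 0.47, adjusted p = 0.00737) and Lamc1, a laminin chain, from 619.8 and 601 to 119 and 137 CPM (log2 change -2.25 ± 0.35, adjusted p = 0.0101). Aspn, the small proteoglycan asporin, went from 51 and 60.7 to 2.58 and 3.43 CPM, below sham (11.6 and 14.7 CPM), and kept its call with any library left out (log2 change -4.21 ± 0.38, adjusted p = 0.00196). Sparc, a collagen-binding protein, went from 7261 and 10978 to 2914 and 2547 CPM (log2 change -1.74 ± 0.39, adjusted p = 0.0409).

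Dcn and Efemp1 rose. Dcn, the small proteoglycan decorin that binds collagen fibrils and TGF-beta, went from 1501 and 2327 to 7202 and 9309 CPM (log2 change 2.11 ± 0.50, adjusted p = 0.0465), and Efemp1, a fibulin, from 116 and 185 to 1359.9 and 1985 CPM (log2 change 3.48 ± 0.49, adjusted p = 0.00737). Dcn is also a fibroblast marker, and of the 13 fibroblast markers it was the only one that rose, while Col3a1, Mfap5 and Lox fell and 9 did not pass. Among those 9, Lum, the related proteoglycan lumican, had 1727 and 1407 CPM at day 7 and 2664 and 2505 CPM at day 60 (log2 change 0.72 ± 0.50, adjusted p = 0.454), and Pdgfra, a receptor of fibroblasts and oligodendrocyte precursors, had 545 and 524 and 216 and 407 CPM (log2 change -0.78 ± 0.43, adjusted p = 0.343). The 10 fibroblast markers other than collagens held a larger share of counts at day 60 than at day 7, as given above. Dcn alone held 0.792% and 0.84% of counts at day 60, and of these 10 markers 1 rose and 2 fell. The 3 collagens held a smaller share at day 60. Of all 13 fibroblast markers, 10 estimates were below 0, with a median of -0.78. The part of fibroblasts in the matrix result was not tested. Of the 13 fibroblast markers 6 fell and 1 rose with the replicate block. The matrix members that fell numbered 2 and 3 when day 7 replicate 1 or 2 was left out and 1 and 8 when day 60 replicate 1 or 2 was, and those that rose 0 and 1 when day 7 replicate 1 or 2 was left out and 1 and 1 when day 60 replicate 1 or 2 was. Dcn lost its call in each of these fits (adjusted p 0.110 to 0.276).

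Of 32 matrix proteases, inhibitors and crosslinking enzymes, 4 fell and 3 rose. The collagen crosslinkers Lox and Loxl1 fell, Lox from 1126 and 715 to 99.7 and 186 CPM (log2 change -2.69 ± 0.51, adjusted p = 0.0217) and Loxl1 from 698 and 713 to 147 and 118 CPM (log2 change -2.42 ± 0.44, adjusted p = 0.0185). Serpinh1, the collagen chaperone HSP47, went from 3275 and 2802 to 916 and 847 CPM (log2 change -1.79 ± 0.38, adjusted p = 0.0325). The proteases Mmp9 and Mmp12 rose, Mmp9 from 77.5 and 99.4 to 368 and 618 CPM (log2 change 2.48 ± 0.58, adjusted p = 0.0459) and Mmp12 from 15.2 and 17.8 to 71.9 and 146 CPM (log2 change 2.72 ± 0.59, adjusted p = 0.0403). Timp4, an inhibitor of such proteases, went from 5.31 and 7.32 to 81.4 and 62.9 CPM (log2 change 3.51 ± 0.69, adjusted p = 0.0259), below 133 and 235 CPM in sham. Members that fell numbered 0 and 0 when day 7 replicate 1 or 2 was left out and 0 and 2 when day 60 replicate 1 or 2 was, and 12 with the replicate block. Members that rose numbered 0 without any 1 of the 4 libraries.

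Among 22 genes of TGF-beta signalling, a pathway that induces matrix production, 3 fell and 0 rose. The ligands Tgfb1 and Tgfb3 went from 79.9 and 61.5 to 16.7 and 11.4 CPM (log2 change -2.33 ± 0.36, adjusted p = 0.0102) and from 285 and 208 to 59.9 and 57.1 CPM (log2 change -2.07 ± 0.37, adjusted p = 0.0173). Bmp1, the protease that trims procollagens, went from 451 and 632 to 127 and 204 CPM (log2 change -1.71 ± 0.36, adjusted p = 0.0311). The receptors and Smad transducers of the list did not pass. The members that fell numbered 0 and 1 when day 7 replicate 1 or 2 was left out and 0 and 1 when day 60 replicate 1 or 2 was, and 9 with the replicate block.

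**Figure D3:**
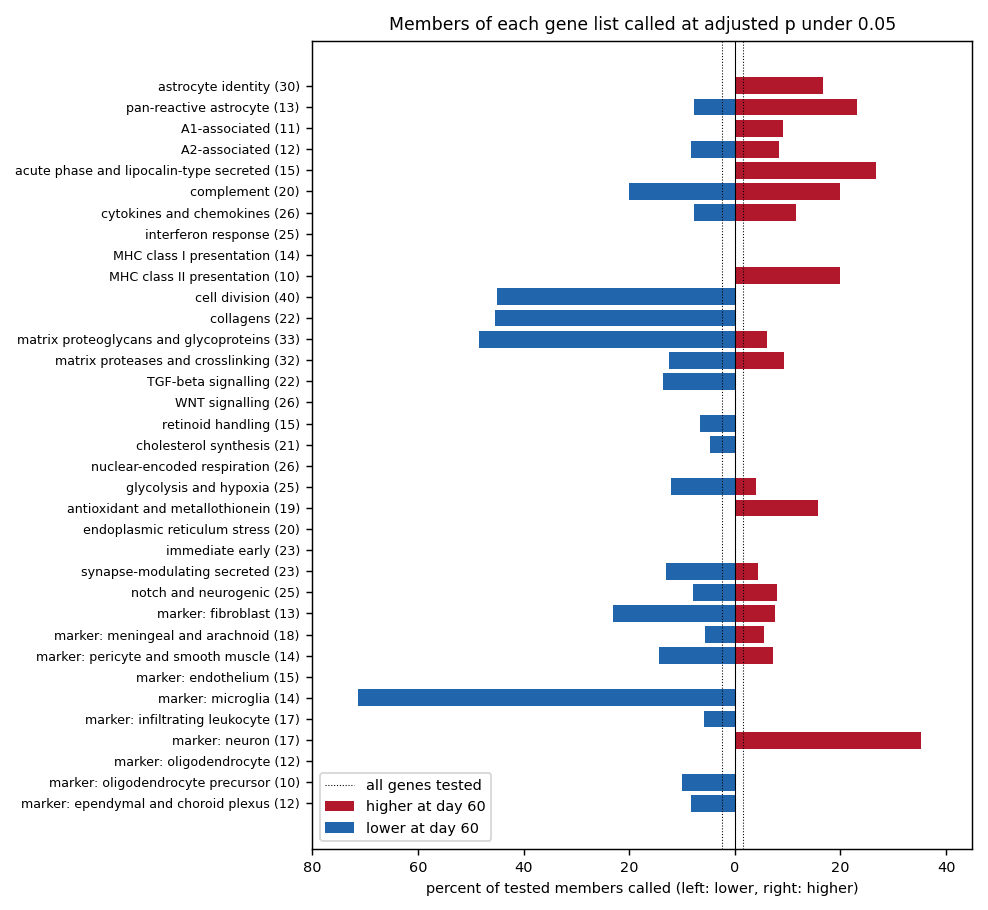
Bars show the percent of tested members of each gene list (number tested in brackets) that were called higher (right, red) or lower (left, blue) at day 60, and dotted lines the same for all genes tested (1.55% and 2.39%). Microglial markers (10 of 14), matrix proteoglycans (16 of 33), collagens (10 of 22) and cell division (18 of 40) reach farthest to the left.

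Microglial markers were lower at day 60. Of 14 markers, 10 fell and 0 rose, with a median of -3.05, and the 14 held 0.61% and 0.335% of counts at day 7, 0.108% and 0.0877% at day 60 and 0.0711% and 0.0827% in sham. P2ry12, the purinergic receptor of resting microglia, went from 90.9 and 34.9 CPM at day 7 to 2.52 and 3.81 CPM at day 60 (log2 change -4.30 ± 0.60, adjusted p = 0.00735), against 80.5 and 62.4 CPM in sham. Cx3cr1, the fractalkine receptor, went from 405 and 101 to 12.1 and 7.34 CPM (log2 change -4.70 ± 0.79, adjusted p = 0.0142), and Csf1r, the receptor on which microglia depend, from 800.1 and 599 to 32.3 and 96.5 CPM (log2 change -3.44 ± 0.59, adjusted p = 0.0153). These 3 genes, like Fcrls, were lower in both day 60 libraries than in both sham libraries.

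Trem2, a lipid-sensing receptor of phagocytes, went from 403 and 405 to 65.1 and 70.1 CPM (log2 change -2.58 ± 0.45, adjusted p = 0.0155). Gpr34, Siglech and Aif1 also fell, with log2 fold changes of -3.78 ± 0.78, -2.32 ± 0.53 and -2.53 ± 0.50 (adjusted p = 0.0301, 0.0438 and 0.0263). Tmem119 (637 and 309.7 CPM, then 186 and 101 CPM; adjusted p = 0.118), P2ry13, Sall1 and Olfml3 did not pass, although with the replicate block Tmem119, P2ry13 and Olfml3 did (adjusted p = 0.00192, 0.0336 and 0.0383). The markers that fell numbered 2 and 4 when day 7 replicate 1 or 2 was left out and 1 and 6 when day 60 replicate 1 or 2 was. Of 17 markers of infiltrating leukocytes tested, F13a1 fell and none rose (5.88%, against 3.95% of all genes tested), and 2 fell with the replicate block. Their estimates were mixed, with 9 above 0, 8 below 0 and a median of 0.28. They held 0.0306% and 0.0195% of counts at day 7 and 0.00693% and 0.0194% at day 60. Ptprc (CD45), the general leukocyte antigen, had 54.5 and 46.3 CPM at day 7 and 14.3 and 17.1 CPM at day 60 (log2 change -1.68 ± 0.68, adjusted p = 0.19).

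Of 20 complement genes tested, 4 rose and 4 fell, with a median of 1.16 (-0.21 without day 60 replicate 2). C3 and its partner in the alternative pathway, Cfb (complement factor B), rose, Cfb from 24.1 and 45.8 to 177 and 336 CPM (log2 change 2.87 ± 0.62, adjusted p = 0.0356). Serping1, the inhibitor of the C1 proteases, went from 1093 and 1361 to 5677 and 7100.1 CPM (log2 change 2.38 ± 0.43, adjusted p = 0.0188), and C1rl, a C1r-like protease, from 1.95 and 2.35 to 13.1 and 13.8 CPM (log2 change 2.64 ± 0.54, adjusted p = 0.0295).

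The genes that fell encode the recognition protein C1q and receptors for complement fragments. C1qa went from 1164 and 535 to 128 and 56.1 CPM (log2 change -3.20 ± 0.60, adjusted p = 0.0209) and C1qc from 1952 and 912 to 266 and 122 CPM (log2 change -2.88 ± 0.57, adjusted p = 0.0263), while C1qb missed the threshold (log2 change -2.44 ± 0.60, adjusted p = 0.0529; 0.00243 with the replicate block). C3ar1, the C3a receptor, went from 202 and 67 to 15.7 and 15.5 CPM (log2 change -3.11 ± 0.63, adjusted p = 0.0272), and C5ar1, the C5a receptor, from 89.3 and 56.2 to 17 and 12.8 CPM (log2 change -2.29 ± 0.42, adjusted p = 0.0192). In the brain C1q and these receptors are made mainly by microglia and macrophages. Microglial markers, a list that includes C1qa itself, fell with them. Of 17 markers of infiltrating leukocytes, some of them macrophage genes, only F13a1 fell, and their median was 0.28. The part of microglia and macrophages in the result was not tested. The members that fell numbered 0 and 3 when day 7 replicate 1 or 2 was left out and 0 and 0 when day 60 replicate 1 or 2 was, and those that rose 0 and 0 when day 7 replicate 1 or 2 was left out and 0 and 1 when day 60 replicate 1 or 2 was. With the replicate block 7 rose and 5 fell.

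C4a and C4b, near-identical copies of complement component 4 chosen after their values were seen, differed between replicates more than between days and did not pass. C4a had 0.0672 and 3631 CPM at day 7 and 0.344 and 34010.5 CPM at day 60. C4b had 201 and 2517 and 884 and 31807 CPM (adjusted p = 0.751 for C4a and 0.421 for C4b; with the replicate block 0.291 and 0.0036). Reads of such copies can be assigned to either, so these values are uncertain. In both groups replicate 2 was the higher for both genes.

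Of 15 acute phase genes tested, 4 rose and 0 fell, with a median of 2.74 (1.74 with genes at 0 counts in a group entered at their bound). Besides Lcn2 and Saa3, Hp (haptoglobin, which binds free haemoglobin) went from 7.12 and 7.27 to 222 and 105 CPM (log2 change 4.51 ± 0.60, adjusted p = 0.00574) and Ptx3, a pentraxin, from 2.35 and 1.92 to 21.4 and 8.24 CPM (log2 change 2.80 ± 0.67, adjusted p = 0.0496). Cp, the copper oxidase ceruloplasmin, had 474 and 714 CPM at day 7 and 1250.1 and 2728 CPM at day 60 and did not pass (log2 change 1.74 ± 0.54, adjusted p = 0.102; 0.0202 with the replicate block). Serpina3n, often used as a marker of reactive astrocytes, had 8.13 and 5.56 and 2.86 and 7.93 CPM (log2 change -0.32 ± 0.66, adjusted p = 0.839). The members that rose numbered 2 and 2 when day 7 replicate 1 or 2 was left out and 3 and 4 when day 60 replicate 1 or 2 was, and 7 with the replicate block.

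Of 26 cytokines and chemokines, 3 rose and 2 fell. Beside Cxcl5 and Cxcl13, Cxcl12, the chemokine that retains leukocytes and guides progenitor cells, went from 1641 and 1053 to 7397 and 4719 CPM (log2 change 2.17 ± 0.51, adjusted p = 0.0466). Spp1, the secreted phosphoprotein osteopontin, went from 29070.5 and 28423 to 2334 and 1891 CPM (log2 change -3.77 ± 0.51, adjusted p = 0.00586), and both day 60 libraries stayed far above sham (25.6 and 12.8 CPM). Il33, an alarmin of astrocytes and oligodendrocytes, went from 314 and 284 to 65 and 68.3 CPM (log2 change -2.17 ± 0.40, adjusted p = 0.0192), beside 77.5 and 58.3 CPM in sham. Ccl2, which attracts monocytes, had 16.7 and 14 and 57.2 and 41.2 CPM and did not pass (log2 change 1.68 ± 0.52, adjusted p = 0.103; 0.0291 with the replicate block).

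Spp1 lost its call only without day 60 replicate 1 (0.0734), and Cxcl12 and Il33 lost theirs in each fit that left out 1 library (adjusted p 0.0671 to 0.274 and 0.0759 to 0.153). With the replicate block 10 of the 26 rose and 5 fell.

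In the MHC class II pathway, which presents antigen to helper T cells, Cd74 and H2-Eb1 rose. Cd74, the invariant chain, went from 149 and 171 to 1133 and 1273 CPM (log2 change 2.91 ± 0.53, adjusted p = 0.0185), and H2-Eb1, a class II chain, from 28.9 and 23.8 to 205 and 161 CPM (log2 change 2.80 ± 0.68, adjusted p = 0.04998, just past the threshold). These were the 2 of 10 class II genes that rose, and none fell. H2-Aa and H2-Ab1, which form the I-A molecule, missed the threshold (adjusted p = 0.06 and 0.06; 0.00967 and 0.0174 with the replicate block). H2-Aa had 28.7 and 24.7 CPM on day 7 and 221 and 161 CPM on day 60, and H2-Ab1 had 65.8 and 51.3 and 458 and 343 CPM. With 1 library left out, neither Cd74 (adjusted p 0.0527 to 0.148) nor H2-Eb1 (0.0886 to 0.262) passed, and with the replicate block 4 of the 10 rose.

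None of 14 class I genes and none of 25 interferon response genes passed. An unadjusted p under 0.05 was found for 4 and 7 of them, against 3313 of 15635 genes tested. DESeq2 called 3 and 4 of them higher, against 7.02% of all its genes. With the replicate block 3 and 7 rose, against 5.66% of all genes. Irf7, a transcription factor of the interferon response, had 97.9 and 123 CPM at day 7 and 282 and 362 CPM at day 60 (log2 change 1.55 ± 0.38, adjusted p = 0.0515; 0.0177 with the replicate block), and B2m, the class I light chain, had 967 and 743 and 1439 and 1462 CPM (log2 change 0.76 ± 0.39, adjusted p = 0.304).

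Of 30 genes of astrocyte identity, 5 rose and 0 fell at day 60, 27 estimates were positive, and the median was 1.68. Slc1a3, the glutamate transporter GLAST, went from 105 and 85.4 to 339 and 383 CPM (log2 change 1.92 ± 0.45, adjusted p = 0.0465), against 603 and 513 CPM in sham. Fgfr3, a growth factor receptor of astrocytes, went from 8.8 and 8.93 to 38.1 and 72.2 CPM (log2 change 2.64 ± 0.52, adjusted p = 0.0263), and Mlc1, a membrane protein of astrocyte endfeet, from 26.7 and 16.5 to 105 and 112 CPM (log2 change 2.33 ± 0.55, adjusted p = 0.0483). Cldn10, a claudin, went from 1.54 and 2.31 to 19.9 and 21.9 CPM (log2 change 3.41 ± 0.67, adjusted p = 0.0259), and Ntsr2, a neurotensin receptor of astrocytes, from 12.4 and 8.95 to 73 and 57.4 CPM (log2 change 2.62 ± 0.54, adjusted p = 0.0309). For all 5 of these genes both day 60 libraries lay below both sham libraries.

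The other 25 astrocyte genes did not pass. Slc1a2, the glutamate transporter GLT-1, had 72.4 and 29.1 CPM at day 7 and 452 and 150.0 CPM at day 60 (log2 change 2.57 ± 0.77, adjusted p = 0.0914; 0.0364 with the replicate block), and Aqp4, the water channel of endfeet, had 12.1 and 4.77 and 23.2 and 14.9 CPM (log2 change 1.19 ± 0.58, adjusted p = 0.277). Glul (glutamine synthetase), Aldh1l1, Kcnj10, Sox9 and S100b had adjusted p of 0.284, 0.408, 0.229, 0.13 and 0.106, and of these S100b passed with the replicate block (0.0204). Gja1, the gap junction protein connexin 43, had an estimate in the other direction, with 702 and 422 CPM at day 7 and 139 and 150.5 CPM at day 60 (log2 change -1.95 ± 0.52, adjusted p = 0.0661; 0.00871 with the replicate block). No member rose in any fit that left out 1 of the 4 libraries, and with the replicate block 12 rose and 2 fell.

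Genes of astrocyte reactivity moved in both directions or did not pass. Gfap, the intermediate filament of astrocytes, had 556 and 359 CPM at day 7 and 186 and 178 CPM at day 60 (log2 change -1.33 ± 0.62, adjusted p = 0.255), next to 161 and 175 CPM in sham. Vim, or vimentin, had 667 and 706 and 665 and 539 CPM (log2 change -0.19 ± 0.31, adjusted p = 0.785). Of 13 genes of the pan-reactive list, Lcn2, Steap4 and Aspg rose and Cd44 fell. Steap4, a metal reductase, went from 61.1 and 40 to 383 and 516 CPM (log2 change 3.15 ± 0.71, adjusted p = 0.0403), Aspg, an asparaginase, from 31.1 and 51.3 to 291 and 284 CPM (log2 change 2.80 ± 0.66, adjusted p = 0.046), and Cd44, the hyaluronan receptor, from 74.2 and 62 to 16.7 and 20.4 CPM (log2 change -1.88 ± 0.37, adjusted p = 0.0259).

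Stat3 and its inhibitor Socs3, which transmit and limit cytokine signals, did not pass (adjusted p = 0.465 and 0.746), nor did Timp1 (0.96). Of the lists that the literature names A1 and A2, Serping1 rose among 11 A1 genes, and among 12 A2 genes Ptx3 rose and Emp1, a membrane protein, went from 425 and 204 to 18.3 and 10.1 CPM (log2 change -4.47 ± 0.86, adjusted p = 0.0232). Calls made up 30.8% of pan-reactive, 9.09% of A1 and 16.7% of A2 genes tested, against 3.95% of all genes tested. In the fit with the block 5 of the pan-reactive and 4 of the A1 genes rose, against 5.66% of all genes. With 1 library left out, Lcn2 kept its call in each of the 4 fits, and Steap4, Aspg, Cd44, Serping1 and Emp1 in none (adjusted p 0.0949 to 0.236, 0.0922 to 0.251, 0.0732 to 0.176, 0.0594 to 0.166 and 0.0545 to 0.127).

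Of 17 neuronal markers, 6 rose and 0 fell, all 17 estimates were positive, and the median was 2.24. The 17 held 0.0331% and 0.0176% of counts at day 7, 0.145% and 0.113% at day 60 and 0.997% and 1.17% in sham. Snap25, a protein of synaptic vesicle release, went from 25.1 and 17.7 to 149 and 170.0 CPM (log2 change 2.90 ± 0.35, adjusted p = 0.00489), against 1402 and 1138 CPM in sham. Nefm, a neurofilament, went from 3.56 and 1.8 to 28.4 and 14.6 CPM (log2 change 3.03 ± 0.48, adjusted p = 0.0118), and Gad2, an enzyme of GABA synthesis, from 1.28 and 0.53 to 4.3 and 7.4 CPM (log2 change 2.77 ± 0.57, adjusted p = 0.0295). The part of neuronal RNA in the astrocyte result was not tested. The markers that rose numbered 1 and 1 when day 7 replicate 1 or 2 was left out and 1 and 5 when day 60 replicate 1 or 2 was.

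Markers of endothelium and of oligodendrocytes did not pass: 0 of 15 and 0 of 12 were called by edgeR, against 3.95% of all genes tested. An unadjusted p under 0.05 was found for 2 and 0, against 3313 of 15635 genes tested. DESeq2 and the replicate block each called 1 and 0, against 13.1% and 12.4% of all their genes. Estimates were above 0 for 12 of 15 and 9 of 12, with medians of 1.09 and 0.66. Replicates lay far apart for the endothelial genes chosen by the rule. Ly6c1 had 54.6 and 227 CPM at day 7 and 228 and 971 CPM at day 60, and Slco1a4 75.1 and 196, then 126 and 943. Abcb1a had 64.5 and 306, then 97.5 and 483 CPM. For Cldn5 replicate 1 was the higher (144 and 80.1, then 472 and 162.5 CPM). A missed call of these genes therefore does not show an unchanged level. The endothelial markers held 0.0893% and 0.119% of counts at day 7 and 0.217% and 0.336% at day 60. The oligodendrocyte markers held 0.097% and 0.0454% at day 7 and 0.168% and 0.106% at day 60. Mbp, the myelin basic protein, had 771 and 447 CPM at day 7 and 1125 and 805 CPM at day 60 (log2 change 0.66 ± 0.41, adjusted p = 0.396). Of 18 markers of meninges and arachnoid, 1 rose, 1 fell and 16 did not pass (11.1% called, against 3.95% of all genes tested). With the replicate block 3 rose and 3 fell, against 12.4% of all genes called. The median was 0.21 (-0.14 without day 60 replicate 1). Igf2, a growth factor of leptomeninges whose counts are uncertain because it overlaps another gene, went from 1528 and 1412 to 173 and 119.9 CPM (log2 change -3.33 ± 0.64, adjusted p = 0.0232), with adjusted p 0.0815 to 0.136 when 1 library was left out. Ptgds, a prostaglandin D synthase, went from 83.8 and 159 to 1471 and 1866 CPM (log2 change 3.78 ± 0.54, adjusted p = 0.00776), and lost the call without day 7 replicate 1 (0.0838) and without day 60 replicate 1 (0.0504).

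**Figure D4:**
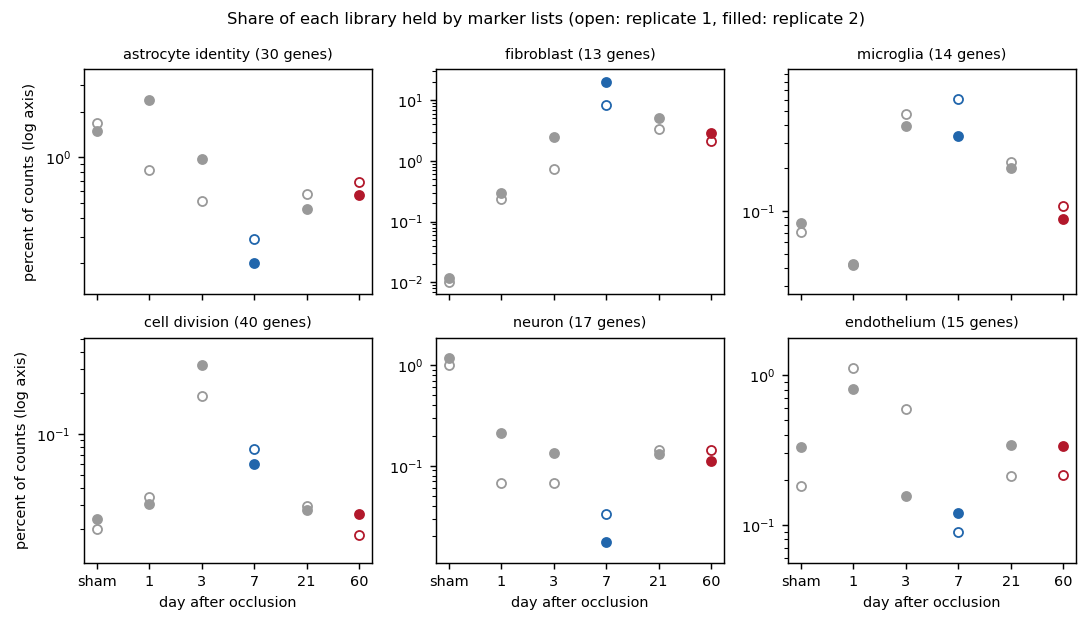
Percent of counts (log axis) held by 6 gene lists in each of the 12 libraries, by day after the occlusion, with replicate 1 open, replicate 2 filled, day 7 in blue and day 60 in red. Astrocyte identity and neuronal genes are lowest and fibroblast markers (mostly their 3 collagens) highest at day 7, and at day 60 the microglial share is close to that of sham.

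Of 19 antioxidant and metallothionein genes, 3 rose and 0 fell. Gpx3, the secreted glutathione peroxidase, went from 211 and 173 to 4983 and 4083 CPM (log2 change 4.56 ± 0.46, adjusted p = 0.00282) and kept its call with any of the 4 libraries left out. Slc7a11, which imports cystine for glutathione synthesis, went from 40.8 and 32.8 to 371 and 283 CPM (log2 change 3.15 ± 0.50, adjusted p = 0.0118), and Nqo1, a quinone reductase, from 11.2 and 14.6 to 74.8 and 73.7 CPM (log2 change 2.52 ± 0.32, adjusted p = 0.00539). Slc7a11 kept its call only without day 60 replicate 2 (0.033; otherwise 0.0892, 0.1 and 0.0803, for day 7 replicate 1, day 7 replicate 2 and day 60 replicate 1 left out), and Nqo1 lost it only without day 7 replicate 1 (0.0624). Of the 19 genes, 5 rose and 1 fell with the replicate block.

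Of 25 genes of glycolysis and hypoxia, 3 fell and 1 rose (3 and 3 with the replicate block). Slc16a3, the lactate exporter MCT4, went from 38.4 and 25.6 to 3.95 and 2.91 CPM (log2 change -3.23 ± 0.58, adjusted p = 0.0177), Egln3, an oxygen-sensing hydroxylase, from 12.3 and 9.68 to 1.95 and 1.31 CPM (log2 change -2.76 ± 0.51, adjusted p = 0.0192), and Pfkfb3, an activator of glycolysis, from 77.7 and 72.9 to 14.4 and 27.6 CPM (log2 change -1.84 ± 0.41, adjusted p = 0.0397). Adm, the vasodilator peptide adrenomedullin, went from 6.99 and 4.76 to 56.5 and 30.6 CPM (log2 change 2.90 ± 0.60, adjusted p = 0.0311). Without day 60 replicate 2 Pfkfb3 and Adm kept their calls (0.048 and 0.0477), and no other of these 4 calls held with a library left out (adjusted p 0.0534 to 0.204).

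Notch and neurogenic genes moved in both directions, with 2 of 25 higher and 2 lower (4 and 3 with the replicate block). Heyl, a Notch target of mural cells, went from 165 and 86.2 to 8.65 and 9.32 CPM (log2 change -3.80 ± 0.66, adjusted p = 0.0158), and the receptor Notch2 from 112 and 109.6 to 23.2 and 39.3 CPM (log2 change -1.83 ± 0.36, adjusted p = 0.0252). Hes5, a Notch target of neural progenitors and astrocytes, went from 1.28 and 0.335 to 9.45 and 4.34 CPM (log2 change 3.22 ± 0.74, adjusted p = 0.0438), and Id4, an inhibitor of differentiation factors, from 18.6 and 7 to 80.3 and 50.2 CPM (log2 change 2.36 ± 0.55, adjusted p = 0.0466). Of 23 secreted and engulfment genes that act on synapses, Sparc, Il33 and Megf10 fell and Gpc5 rose. Megf10, an engulfment receptor of astrocytes, went from 64.3 and 63 to 15.1 and 21.4 CPM (log2 change -1.80 ± 0.43, adjusted p = 0.0495), and Gpc5, a glypican, from 2.96 and 2.48 to 11.5 and 12.7 CPM (log2 change 2.16 ± 0.46, adjusted p = 0.0334). With 1 library left out, Heyl kept its call only without day 7 replicate 2 (0.0411, otherwise 0.0757 to 0.129) and Notch2 only without day 60 replicate 2 (0.0417, otherwise 0.111 to 0.16), and the other 6 genes in none of the 4 fits (adjusted p 0.0541 to 0.261).

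Several lists held few calls or none. Of 21 cholesterol synthesis genes Dhcr7 fell (log2 change -1.81 ± 0.43, adjusted p = 0.0487; 0 calls with RLE size factors and 0 in each fit that left out 1 library), and of 15 retinoid genes Aldh1a3 fell. These calls were 4.76% of the cholesterol genes and 6.67% of the retinoid genes tested, against 3.95% of all genes tested. With the replicate block 2 cholesterol genes and 3 retinoid genes rose and 1 of each fell. Of all genes, 5.66% rose and 6.76% fell in that fit. edgeR called 0 of 26 WNT genes and 0 of 26 nuclear-encoded respiratory genes. It also called 0 of 20 endoplasmic reticulum stress genes and 0 of 23 immediate early genes. In these 4 lists 10, 2, 2 and 4 genes had an unadjusted p under 0.05, against 3313 of 15635 genes tested. DESeq2 called 7, 0, 1 and 2 genes of these lists, against 13.1% of all its genes. In the fit with the block edgeR called 7 WNT genes (4 higher and 3 lower), 1 respiratory gene (higher), 0 of endoplasmic reticulum stress and 5 immediate early genes (1 higher and 4 lower). Fos, an immediate early transcription factor, had 2386 and 1572 CPM at day 7 and 883 and 531 CPM at day 60 (log2 change -1.49 ± 0.59, adjusted p = 0.182; 0.0278 with the replicate block), and Hspa5, the chaperone BiP, had 2092 and 2374 and 1229.8 and 1366 CPM (log2 change -0.78 ± 0.36, adjusted p = 0.249). All 26 respiratory estimates were positive, with a median of 0.53; Atp5b, a subunit of ATP synthase, had 942 and 1261 and 1244 and 1421 CPM (log2 change 0.28 ± 0.40, adjusted p = 0.754).

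The day 21 libraries, which did not enter the contrast, place these changes in time. At that time Lcn2 had 1344 and 2113 CPM, C3 3611 and 6280.0 CPM and Gpx3 4673 and 4120.2 CPM, all close to their day 60 levels. Cxcl5 had 486 and 358 CPM at day 21, above both day 60 libraries, and Prok2 44.2 and 31.8 CPM, also above. At day 21 Lhx8 had 3.75 and 3.77 CPM, Car3 1.12 and 3.01 CPM and Igj 1.18 and 0.636 CPM, well below day 60.

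Among the falls, Spp1 had 2027 and 1982 CPM at day 21 and Gal 0.056 and 0 CPM, both near day 60. Col3a1 had 4372 and 10459.5 CPM at day 21, between day 7 and day 60. Cx3cr1 had 114 and 50.9 CPM at day 21, above both day 60 libraries and overlapping those of day 7. Cst7 was an exception, with 34.9 and 37.8 CPM at day 21, within the range of day 7. These levels are a description, and the differences from day 21 were not tested here.

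**Figure D5:**
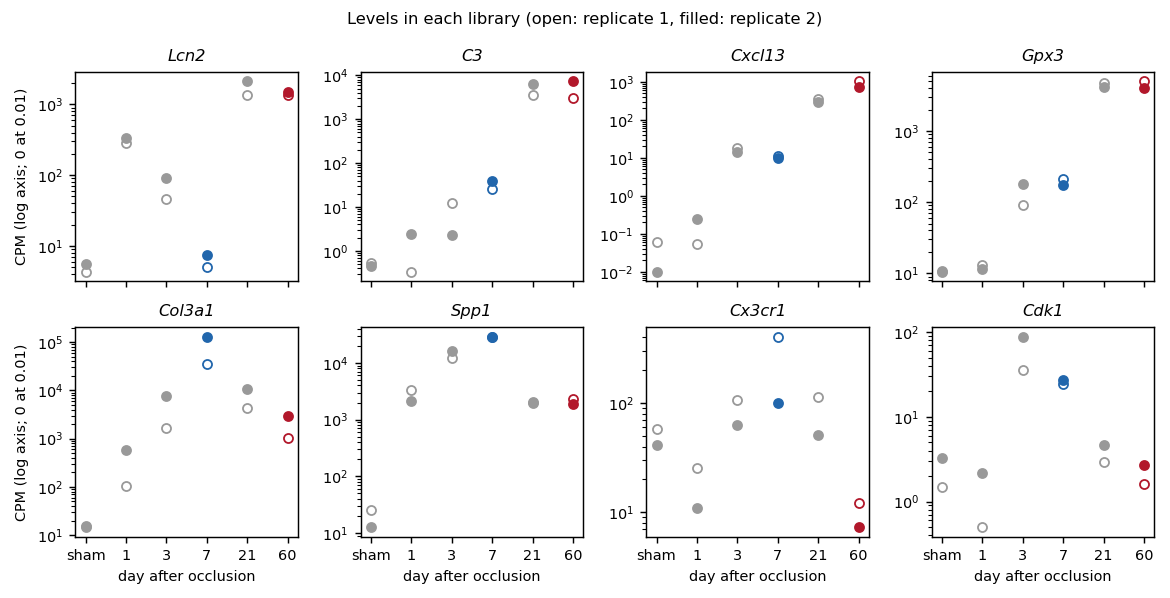
CPM (log axis, 0 at 0.01) of 8 genes in each of the 12 libraries by day after the occlusion, with replicate 1 open, replicate 2 filled, day 7 in blue and day 60 in red. Lcn2 is high at day 1, back at the sham level at day 7 and high at days 21 and 60, whereas Col3a1 and Spp1 are highest at day 7.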

How the data were processed

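Total RNA of cortical astrocytes isolated by FACS was measured in 12 libraries, 2 in each of 6 groups taken from the labels. The deposited values are raw counts per gene symbol for 15774 genes, made by the authors with Bowtie2 2.3.4.2 and HTSeq 0.6.1 on mm10, per the submitters' processing notes. Annotation, strand setting and the treatment of multi-mapped reads are not given in the sources used here. The series table equalled the sample files in 189288 of 189288 values, and every row names a gene. Replicate 1 libraries held 13006008 to 16575045 counts and replicate 2 libraries 97056596 to 156128922, so low levels are more precise in replicate 2.

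Counts were fitted with edgeR 4.0.16 in R 4.3.3 (filterByExpr with a minimum count of 10, 15635 genes kept; TMM factors 0.689 to 1.22; quasi-likelihood F test, 1 coefficient per group, 6 residual and 4.15 prior degrees of freedom, median biological coefficient of variation 0.408). The contrast was day 60 minus day 7, with Benjamini-Hochberg adjustment over all genes and a threshold of 0.05. The standard error is the log2 fold change divided by the square root of F. CPM use TMM-scaled totals, and percents of counts use plain totals. The script was tested on simulated data. Deviations of same-numbered replicates correlated in 15 of 15 pairs of groups (0.319 to 0.713, above a threshold of 0.1, on log2 CPM with a prior count of 2). Replicate number also went with depth, so a pairing of the libraries and an effect of depth cannot be told apart. The main fit had no block for the replicate number, and its standard errors and adjusted p leave this shared deviation out. For this reason 1 alternative fit had such a block. The other alternatives were RLE size factors, DESeq2 1.42.0, no filter, a minimum count of 50, the 4 libraries alone and each of the 4 libraries left out. In the last, the lone library of a group is assumed to vary like the other groups.

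Gene lists numbered 35 (25 of processes, 10 of markers), and of 700 entries 10 are not in the files under the symbol used. They are described by counts and medians, with no test. Named genes are the 14 largest changes in each direction among genes called with at least 10 CPM in the higher group and no overlap, up to 4 members of each list (those called with the largest change, or, with fewer than 2 called, the most abundant), and 24 landmark genes, 161 in all. Other list members are named as further examples, and a few genes are not reported here. The comparison, members and lists were chosen with earlier results of these data known. A fold against 0 counts uses a floor of 3 counts in each library, and a ratio with 1 to 3 counts in a group has an exact 95% interval. Promoters are from RefSeq (GRCm38.p6), in which 11693 of the genes tested had an entry.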

Additional observations from a re-analysis of the deposited data

How the results depend on the processing

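None of the 93 named genes called changed direction under any alternative tried, and 20 of the 68 named genes not called did, 19 of them with 1 library left out. All 617 called genes had both libraries of 1 day above both of the other. Leaving out a library could therefore hardly reverse a called gene, and this contrast does not measure how firm the calls are. Serpina3n went from -0.32 to 0.21 (log2) without day 60 replicate 1, Socs3 from -0.50 to 0.15 without day 7 replicate 1, Timp1 from -0.20 to 0.07 without day 7 replicate 2 and C4b, named outside the rule, from 3.59 to -0.62 without day 60 replicate 2. The 617 calls (243 higher, 374 lower) became 601 with RLE size factors, 616 with no filter, 645 with a minimum count of 50 and 628 in the 4 libraries alone. DESeq2 called 2072 genes (1107 higher and 965 lower) and the replicate block, which pairs same-numbered libraries, 1942 (885 higher and 1057 lower), each including all 617. The share of calls that were higher was 39.4%, and 53.4% with DESeq2, 42.8% with RLE, 45.6% with the block and 48.7% in the 4 libraries alone, so which direction held more calls depended on the tool. With 1 of the 4 libraries left out, 44 to 332 genes were called, 12 to 144 of them higher and 24 to 188 lower, with fewer samples in each fit. Of 93 named genes called, 81 lost the call in at least 1 of these fits. RLE scaling moved the median of all genes from 0.01 to 0.05. Depth in replicate 1 limits genes at low levels: a level of 3 counts in each library corresponds to a mean of 0.115 CPM at day 7 and 0.0968 CPM at day 60.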
